A study of Mus musculus with 10 samples.

Results

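Nuclear receptors are transcription factors whose activity is set by small lipophilic ligands, such as fatty acids, oxysterols, bile acids, retinoids and steroids, or that act without a known physiological ligand and are then called orphans. Many of them bind DNA as a heterodimer with a retinoid X receptor, and in the liver they control lipid, bile acid, glucose and drug metabolism. HNF4A is known as a driver of hepatocyte identity, and thyroid hormone receptor beta, encoded by Thrb, is itself a nuclear receptor that pairs with retinoid X receptors. The genes described here are 39 of the 55401 genes counted in mouse liver. They were taken from a named list of nuclear receptor symbols, other than the thyroid hormone receptors and the receptors of the circadian clock, and matched to Ensembl gene identifiers.

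Liver RNA of 5 wild-type and 5 Thrb hep-/- mice was sequenced from stranded mRNA libraries. In the Thrb hep-/- mice, floxed Thrb alleles (Thrb-loxP) were recombined by a Cre transgene under the Afp promoter, which is active in the hepatocyte lineage. The paper describes the deletion as hepatocyte-specific, and recombination in other cells of the liver was not tested. Both genotypes were labelled with the strain C56Bl6/J (C57Bl6/J in the sample titles), were untreated and were kept on standard chow with free access to water. The age, sex and collection time of these mice are not given in the sources used here, and the labels do not say whether the samples come from separate litters, so that p-values measure the spread between these samples. Whole liver was used, and in such bulk samples fewer cells of a type and less RNA per cell cannot be told apart.

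Total counts per library were between 26477195 and 28590704, and 3 counts corresponded to 0.105 to 0.113 CPM, that is, counts relative to library size. Thrb itself had 858 to 979 counts in wild-type and 665 to 838 counts in Thrb hep-/- libraries, so that the genotypes did not overlap. The means were 33.3 and 26.7 normalized CPM, a log2 fold change of −0.32. The 6 hepatocyte markers, which include Alb and Cps1, summed to 83567 to 126094 normalized CPM in wild-type and 101320 to 113008 in Thrb hep-/- livers, and 0 of the 6 were past the threshold used here. Of 19 acute-phase genes 11 were lower in Thrb hep-/- livers at that threshold, against 2.57% of all genes tested, with sums of 36052 to 83744 against 24450 to 40084 normalized CPM. The libraries of Thrb hep-/- mice 1, 4 and 5 also held transcripts of the adrenal cortex, which is not liver tissue. Cyp11a1, the enzyme of the first step of steroid synthesis, had 0 counts in all 5 wild-type libraries and 1023, 1, 1, 262 and 147 counts in Thrb hep-/- libraries 1 to 5. The part of the adrenal transcripts and of the acute-phase genes in the results below was not tested. Counts of receptors and of receptor target genes past the threshold are given with and without these 3 libraries. Leaving them out keeps only Thrb hep-/- mice 2 and 3, so that effects of fewer mice and of these transcripts cannot be told apart.

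The receptors ranged from high levels to no reads at all. A receptor was called expressed at 1 CPM or more in at least 5 libraries, low when it was below that with over 3 counts in at least 1 library, and silent with 3 counts or fewer in every library. By this rule 26 receptors were expressed, 9 were low and 4 were silent. Levels of different genes were compared per length, as RPKM, which scales counts by the library total and the exon length. Reads over more than 1 gene were left out but the full exon length was used, so that RPKM can understate receptors with overlapping exons. The overlap was over 10% of the length for 4 receptors, Nr1i3 (74.9%), Nr2f6 (54.4%), Rarb (38.4%) and Nr2c2 (31.2%), and their ranks are uncertain. Hnf4a was the highest, with a mean of 156 RPKM ± 18.7 (SD, n = 10), followed by Rxra, the main retinoid X receptor of hepatocytes, with 142 ± 11.5 (SD, n = 10). The ranges of these 2 genes overlapped. Nr1h4, which encodes the bile acid receptor FXR, had 64.3 RPKM, Nr1h3, the oxysterol receptor LXR alpha, 35.8, Nr1i2, the xenobiotic receptor PXR, 29.1, and Ppara, the fatty acid receptor of fasting metabolism, 27.7. Hnf4a and Rxra made up 52.4% and the 6 genes together 79.9% of the summed level of all 39 receptors. Nr1i2 and Ppara, which are neighbours in this order, did not differ beyond their spread.

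**Figure D1:**
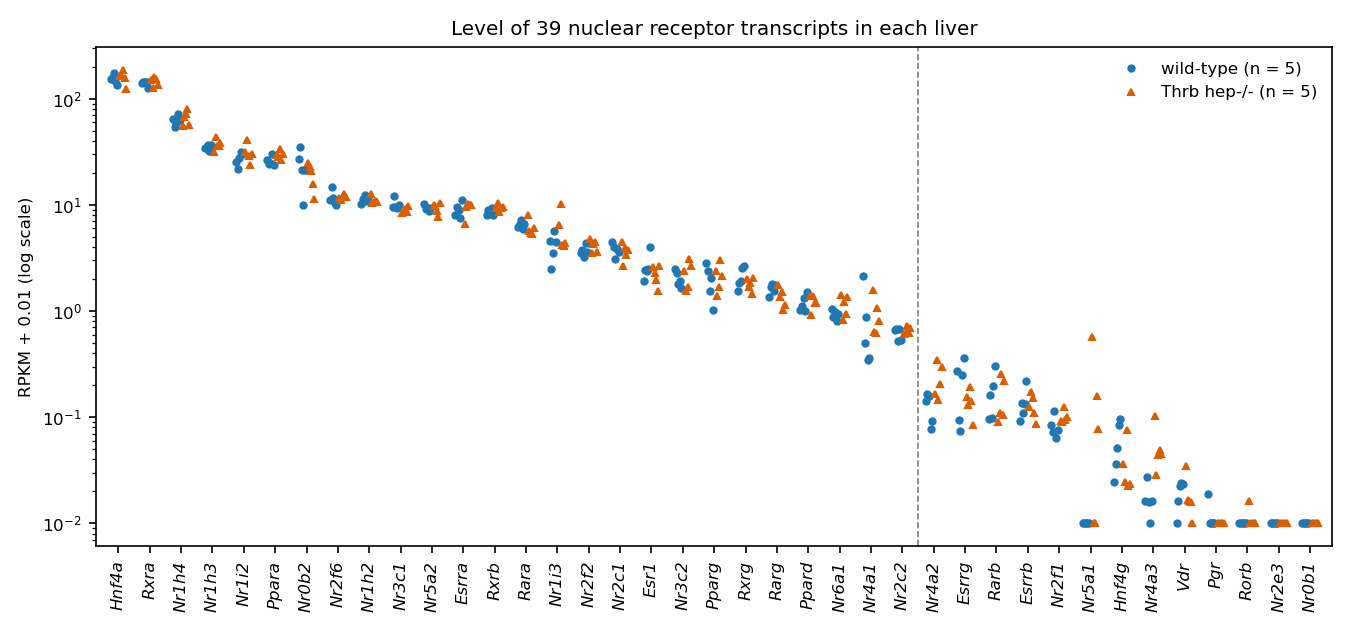
Level of each of the 39 nuclear receptor transcripts in each liver, in RPKM plus 0.01 on a log axis, ordered by the mean over the 10 libraries. Circles are the 5 wild-type and triangles the 5 Thrb hep-/- libraries, and the dashed line separates the 26 expressed from the 13 low or silent receptors. The 2 genotypes lie on top of each other for nearly all genes, with Hnf4a and Rxra above 100 RPKM and Nr5a1 seen in 3 Thrb hep-/- libraries.

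The promoter windows of the receptors were searched for the half-site that most nuclear receptors bind, AGGTCA or GGGTCA, on both strands. Windows of 250 bases before the transcription start came from RefSeq on GRCm38. A half-site occurred in 17 of the 56 windows of the 36 receptors that had an entry (30.4%), and in 23.8% of all 32851 windows. A direct repeat of 2 half-sites spaced by 1 to 5 bases, the arrangement bound by many retinoid X receptor heterodimers, occurred in 0 of the receptor windows and in 0.207% of all windows. Only 1 receptor window held 3 half-sites, the second window of Rxra, which encodes the partner of these heterodimers, and 0.527% of all windows held as many. This window (chr2:27709042-27709291, plus strand) is shown for its half-sites, and that of Nr0b2 (chr4:133553126-133553375, plus strand), which encodes the corepressor SHP, for its single one. The capitals mark AGGTCA or GGGTCA, or their reverse complements TGACCT or TGACCC. A match is a description of these letters and not evidence of binding.
Rxra window 2: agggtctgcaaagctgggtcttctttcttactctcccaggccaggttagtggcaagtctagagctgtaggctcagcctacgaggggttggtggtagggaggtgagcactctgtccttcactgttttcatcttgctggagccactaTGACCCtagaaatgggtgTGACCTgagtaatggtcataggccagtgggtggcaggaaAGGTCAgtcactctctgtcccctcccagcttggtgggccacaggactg
Nr0b2: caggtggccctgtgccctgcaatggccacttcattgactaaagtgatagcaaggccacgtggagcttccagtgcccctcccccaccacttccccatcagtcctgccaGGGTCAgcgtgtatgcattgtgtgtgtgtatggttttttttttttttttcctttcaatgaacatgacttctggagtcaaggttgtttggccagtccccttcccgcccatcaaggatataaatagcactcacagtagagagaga

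Thrb hep-/- livers were compared with wild-type livers to see whether the other nuclear receptors changed in level. Of the 26 expressed receptors, 0 were past an adjusted p of 0.15 (edgeR's quasi-likelihood test, Benjamini-Hochberg adjustment over all 12234 genes tested), the threshold used in the study, whereas 4.08% of all tested genes were. The count of receptors was also 0 with DESeq2, which called 885 genes in all. It was 0 without Thrb hep-/- libraries 1, 4 and 5, where 1.51% of all genes were called and only Thrb hep-/- mice 2 and 3 remained. At an unadjusted p under 0.05 there was 1 receptor, Ppara, against 13.6% of all genes. The genotypes were apart, each mouse of one above each mouse of the other, in 0 of the 26 receptors and in 3.64% of all tested genes. Adjusted p-values of the receptors lay between 0.36 and 0.99 with edgeR. Their log2 fold changes, Thrb hep-/- over wild-type, went from −0.27 (Esr1) to 0.49 (Nr1i3), with a median of 0.059 against 0.00054 over all genes tested. Of these values 18 were above and 8 below 0, and the share above 0 was 69.2%, against 50.1% of all tested genes. The 95% interval of the log2 fold change lay within ±0.5 for 17 of the 26 receptors, which is about the share of all tested genes (65.5%). It lay within ±1 for 24 receptors, and changes beyond these bounds lie outside the intervals of those genes. The intervals of Nr1i3 and Nr4a1 were wider. Within a genotype, the SD of log2 CPM had a median of 0.22 over the receptors and 0.19 over all tested genes. It was largest for Nr4a1 (0.86), an immediate-early orphan receptor, and Nr0b2 (0.58), and 0.091 for Rxrb.

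**Figure D2:**
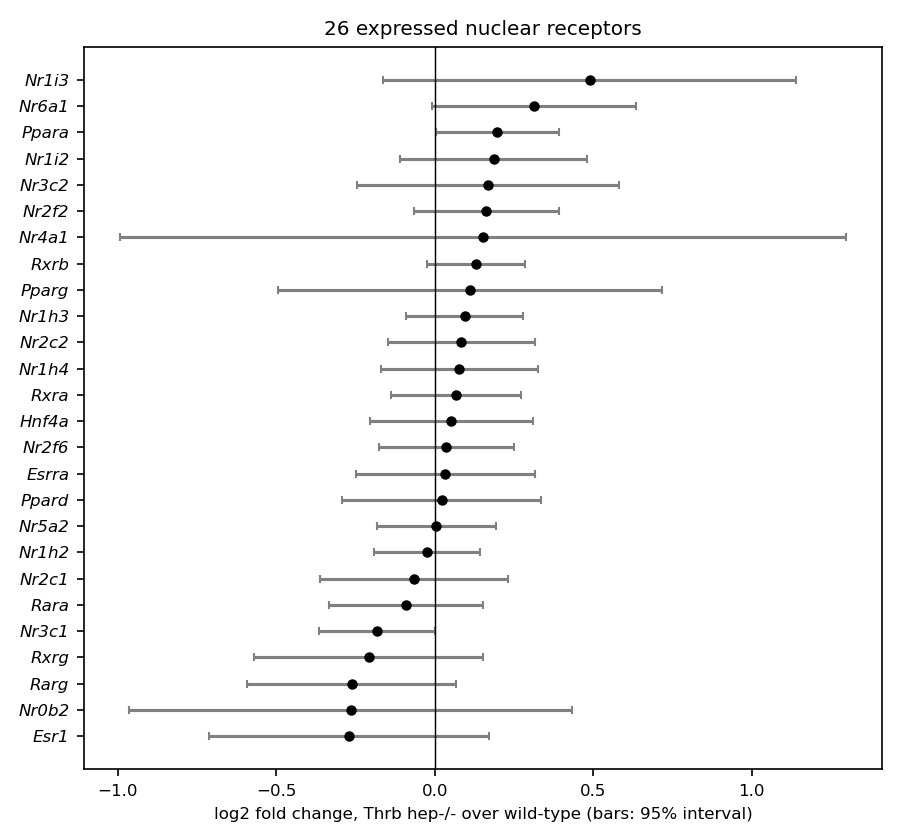
Log2 fold change of the 26 expressed receptors, Thrb hep-/- over wild-type, with the 95% interval from edgeR as bars (n = 5 per genotype). The values go from −0.27 (Esr1) to 0.49 (Nr1i3), and the interval of Ppara, which starts at 0.0022, is the only one that excludes 0.

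Among the lipid sensors, Ppara on chromosome 15 (GRCm38, 85734983 to 85802819, plus strand) had 101, 92.5, 94.6, 116 and 90.6 normalized CPM in wild-type animals 1 to 5, and 112, 108, 130, 101 and 116 in Thrb hep-/- animals 1 to 5. Most Thrb hep-/- mice lay above most wild-type mice, but wild-type mouse 4 was about as high as Thrb hep-/- mouse 5 and the groups overlapped. Means (± SD, n = 5 each) were 98.9 ± 10.3 for wild-type and 113 ± 10.7 for Thrb hep-/-, and the log2 fold change was 0.20 with a standard error (SE) of 0.090 (adjusted p = 0.36 with edgeR). Ppard, its broadly expressed paralogue, had 7.61, 8.22, 9.79, 7.46 and 11.3 normalized CPM in wild-type and 10.2, 6.79, 10.3, 8.84 and 8.84 in Thrb hep-/- mice, with overlap and a log2 fold change of 0.022. Pparg, the adipogenic receptor, ranged from 2.96 to 8.40 in wild-type and from 4.05 to 8.90 in Thrb hep-/- mice.

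The LXR receptors sense oxysterols and switch on cholesterol export and fatty acid synthesis. Nr1h3 had 85.4, 85.7, 92.6, 80.0 and 91.3 normalized CPM in wild-type animals 1 to 5, and 79.7, 109, 89.6, 90.1 and 96.2 in Thrb hep-/- animals 1 to 5. Thrb hep-/- mouse 1 was the lowest and mouse 2 the highest of all 10, so that one genotype enclosed the other, and the log2 fold change was 0.094 (SE 0.085). For Nr1h2, LXR beta, values were 34.1, 38.4, 41.2, 36.8 and 38.4 in wild-type and 42.8, 35.1, 35.9, 36.1 and 35.8 in Thrb hep-/- mice. Here Thrb hep-/- mouse 1 was the highest of all and the other 4 lay within the wild-type range, at a log2 fold change of −0.025.

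Of the bile acid and xenobiotic sensors, Nr1h4 had 149, 124, 136, 167 and 145 normalized CPM in wild-type animals 1 to 5, and 126, 156, 165, 182 and 130 in Thrb hep-/- animals 1 to 5, with a log2 fold change of 0.077 (SE 0.11). Nr0b2, which is induced by FXR and represses bile acid synthesis, ranged more widely, from 11.2 to 39.9 in wild-type and from 12.8 to 28.3 in Thrb hep-/- mice. Nr1i2 had 64.2, 55.4, 70.7, 80.5 and 76.8 in wild-type and 80.8, 103, 73.4, 61.1 and 76.8 in Thrb hep-/- mice, a log2 fold change of 0.19 (SE 0.14). All 3 genes overlapped between genotypes.

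Nr1i3 encodes CAR, which induces drug-metabolizing enzymes. It had 20.3, 11.0, 15.6, 24.9 and 19.7 normalized CPM in wild-type animals 1 to 5, and 28.2, 44.5, 18.3, 18.2 and 19.1 in Thrb hep-/- animals 1 to 5. Mouse 2 of the Thrb hep-/- group stood above all others, while mice 3 to 5 lay within the wild-type range, and the log2 fold change of 0.49 had an SE of 0.29 (adjusted p = 0.51 with edgeR). Without Thrb hep-/- replicate 2 the log2 fold change was 0.20. Of its 4414 bp of exon sequence, 3304 bp overlap Tomm40l on the other strand, and since reads were counted without strand those over both genes were left out, which makes the level of Nr1i3 uncertain. Tomm40l was also highest in this mouse, with 13.8 normalized CPM against 6.97 to 7.95 in the other Thrb hep-/- mice, as was the CAR target Cyp2b10, with 13.9 against 0.861 to 2.57. Vdr, the vitamin D receptor, was low, with at most 4 counts in a library.

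Retinoid X receptors are the common partners of the metabolic receptors and of the thyroid hormone receptors. Rxra had 763, 782, 784, 777 and 684 normalized CPM in wild-type animals 1 to 5, and 824, 687, 883, 836 and 738 in Thrb hep-/- animals 1 to 5. Wild-type mouse 5 was the lowest of all and 3 Thrb hep-/- mice were above all wild-type mice, with an overall log2 fold change of 0.066 (SE 0.094). Rxrb had 32.0, 35.7, 33.8, 36.8 and 32.0 in wild-type and 36.8, 40.9, 34.3, 36.7 and 37.5 in Thrb hep-/- mice, and the log2 fold change of 0.13 had an SE of 0.071 (adjusted p = 0.46 with edgeR). Rxrg was at 3.56 to 6.03 in wild-type and 3.28 to 4.70 in Thrb hep-/- mice.

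The retinoic acid receptors bind all-trans retinoic acid. Rara had 27.0, 28.7, 31.5, 26.1 and 28.7 normalized CPM in wild-type animals 1 to 5, and 35.2, 24.8, 23.9, 22.9 and 26.5 in Thrb hep-/- animals 1 to 5. Thrb hep-/- mouse 1 was the highest of all 10, and the log2 fold change was −0.091 with it and −0.21 without it. Rarg ranged from 5.79 to 7.65 in wild-type and from 4.27 to 7.43 in Thrb hep-/- mice, with a log2 fold change of −0.26 (SE 0.15). Rarb, itself a classical retinoic acid target, was low, with 12, 23, 13, 25 and 41 counts in wild-type and 12, 14, 38, 15 and 31 counts in Thrb hep-/- libraries. Its exons overlap those of Top2b and Gm48162 over 38.4% of their length.

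HNF4A maintains the expression of many hepatocyte genes, among them apolipoproteins and clotting factors. Hnf4a on chromosome 2 (GRCm38, 163506808 to 163572910, plus strand) had 745, 762, 837, 703 and 647 normalized CPM in wild-type animals 1 to 5, and 784, 798, 905, 755 and 589 in Thrb hep-/- animals 1 to 5. Mouse 5 was the lowest and mouse 3 the highest of each genotype, and the log2 fold change of 0.052 (SE 0.12) was within the spread between mice. Its paralogue Hnf4g was low, with 1 to 6 counts per library. Nr5a2, which encodes LRH-1 and takes part in bile acid synthesis, ranged from 51.1 to 59.9 normalized CPM in wild-type and from 45.5 to 61.5 in Thrb hep-/- mice, at a log2 fold change of 0.0046. The COUP-TF genes Nr2f2 and Nr2f6 had log2 fold changes of 0.16 and 0.035, and 54.4% of the exon length of Nr2f6 overlaps Ocel1. Nr2f1 was low.

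Among the steroid receptors, the glucocorticoid receptor gene Nr3c1 had 73.3, 93.5, 73.2, 71.7 and 76.0 normalized CPM in wild-type animals 1 to 5, and 63.7, 67.8, 69.7, 65.9 and 74.7 in Thrb hep-/- animals 1 to 5. All Thrb hep-/- mice but mouse 5 lay below all wild-type mice, and wild-type mouse 2 was far above the rest. The log2 fold change of −0.18 (SE 0.085, adjusted p = 0.38 with edgeR) was not past the threshold. Nr3c2, the mineralocorticoid receptor, had 15.9, 14.5, 11.6, 12.5 and 10.6 in wild-type and 15.4, 9.94, 10.8, 19.8 and 17.2 in Thrb hep-/- mice. Its 3 highest Thrb hep-/- values were those of mice 1, 4 and 5, the libraries with adrenal transcripts, and its log2 fold change was 0.17 with them and −0.32 without them. Esr1, the oestrogen receptor alpha, ranged from 26.0 to 54.8 in wild-type and from 20.9 to 36.1 in Thrb hep-/- mice, and the progesterone receptor gene Pgr was silent, with 2 counts in 1 library.

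The remaining orphans were at low to moderate levels. Esrra, a regulator of mitochondrial genes, ranged from 33.2 to 48.7 normalized CPM in wild-type and from 29.1 to 45.0 in Thrb hep-/- mice, while its paralogues Esrrb and Esrrg were low. Nr6a1, the germ cell nuclear factor, ranged from 8.52 to 11.1 in wild-type and from 8.77 to 15.2 in Thrb hep-/- mice, with a log2 fold change of 0.31 (SE 0.15, adjusted p = 0.38 with edgeR). Without Thrb hep-/- replicate 2 it went past the threshold, at a log2 fold change of 0.42 (adjusted p = 0.14 with edgeR). That fit called 1 of 27 receptors tested and 634 genes in all. The testicular receptor genes Nr2c1 and Nr2c2 had log2 fold changes of −0.065 and 0.083. Rorb had 2 counts in 1 library, and Nr2e3 and Nr0b1 had 0 counts in all 10 libraries, which allows up to 3 counts in each.

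Nr5a1 encodes SF-1, the master regulator of steroidogenic tissues, and was described after its values were seen. It had 0 counts in all wild-type libraries and 68, 0, 0, 19 and 8 counts in Thrb hep-/- libraries 1 to 5. The libraries with Nr5a1 reads were those with the adrenal transcripts. Per 100 counts of Cyp11a1 there were 6.65, 7.25 and 5.44 counts of Nr5a1 in Thrb hep-/- libraries 1, 4 and 5. The steroidogenic enzyme genes Hsd3b1 (1279, 365 and 209 counts) and Cyp11b1 (667, 167 and 96 counts) followed the same order in these libraries and had 0 counts in each of the other 7. Nr0b1, which is also known from the adrenal cortex, had 0 counts in each library.

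The NR4A receptors are immediate-early genes that respond to many stimuli. Nr4a1 had 1.17 to 7.49 normalized CPM in wild-type and 2.16 to 5.45 in Thrb hep-/- mice. Nr4a2 and Nr4a3 were low and entered a fit without a filter on low counts, in which 1 of 37 receptors with reads was past an adjusted p of 0.15, against 2.3% of 27817 genes. This was Nr4a3, named after its values were seen, with 1, 3, 1, 0 and 1 counts in wild-type and 16, 3, 6, 7 and 6 counts in Thrb hep-/- libraries. Thrb hep-/- library 2 equalled the highest wild-type library, and the other 4 were above all wild-type libraries. The fitted log2 fold change was 2.46 (adjusted p = 0.043 with edgeR), and it was 2.01 (adjusted p = 0.17) without Thrb hep-/- replicate 1 and 1.76 (adjusted p = 0.67) without replicates 1, 4 and 5. Nr4a2 had 14, 18, 17, 7 and 9 counts in wild-type and 18, 36, 16, 24 and 33 counts in Thrb hep-/- libraries, at a log2 fold change of 0.89 (adjusted p = 0.26 with edgeR).

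**Figure D3:**
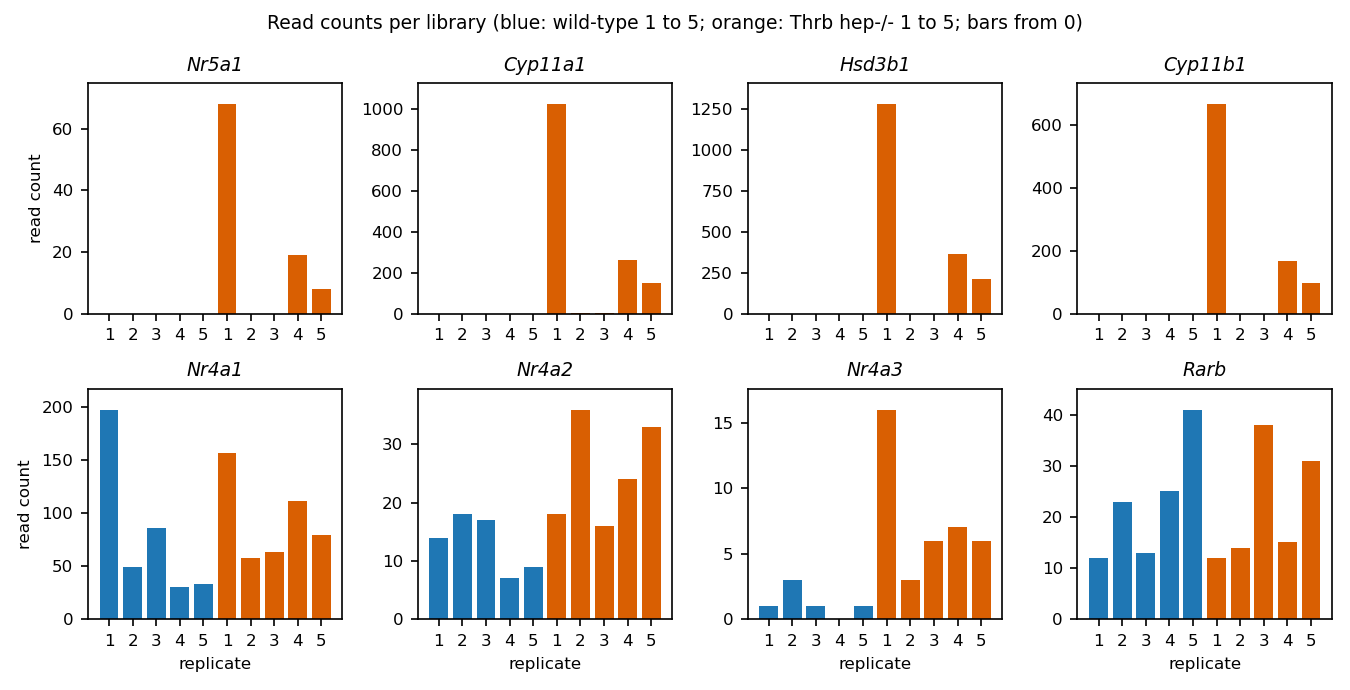
Read counts per library of Nr5a1 and 3 adrenal steroidogenic genes (upper panels) and of the NR4A receptors and Rarb (lower panels), with each axis starting at 0. Blue bars are wild-type 1 to 5 and orange bars Thrb hep-/- 1 to 5. Nr5a1 (68, 19 and 8 counts), Cyp11a1, Hsd3b1 and Cyp11b1 share the same 3 libraries, whereas Nr4a3 has 3 to 16 counts in each Thrb hep-/- library and 0 to 3 in wild-type.

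Ratios of receptor pairs in each library do not depend on the scaling between libraries. For 6 pairs of related receptors the log2 ratio of levels per length was compared by an exact permutation test over the 10 mice, two-sided, whose smallest possible p is 0.0079, and 0 of the 6 pairs passed an adjusted p of 0.15 (range 0.63 to 0.98). Given as mean ± SD (n = 5 each), wild-type first, the log2 ratio of Rxra to Rxrb was 4.02 ± 0.076 and 3.95 ± 0.23. Ppara over Ppard was at 4.46 ± 0.37 and 4.63 ± 0.21, and Nr1h3 over Nr1h2 at 1.62 ± 0.083 and 1.73 ± 0.27. The largest differences between genotypes, Thrb hep-/- minus wild-type, were −0.31 for Nr3c1 over Nr3c2 (exact permutation p = 0.23) and 0.27 for Nr1i3 over Nr1i2 (exact permutation p = 0.21). The first of these was 0.15 without Thrb hep-/- mice 1, 4 and 5. Rara over Rarb differed by 0.035, with a wide spread in both genotypes.

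**Figure D4:**
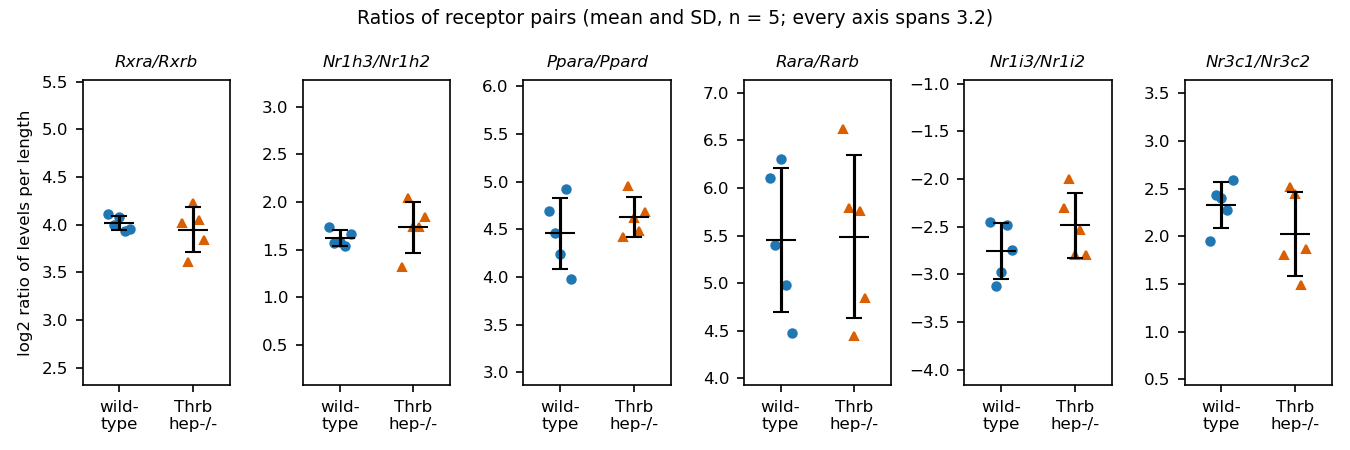
Log2 ratio of levels per length of 6 receptor pairs in each library, with the mean and SD of the 5 libraries of a genotype; every axis spans the same length but is centred on its own pair. The genotypes overlap in all 6 pairs, and the spread is widest for Rara over Rarb (SD 0.76 and 0.85).

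Although no expressed receptor was past the threshold, some of their known target genes were. The 8 lists hold 91 genes, called target genes here, but the retinoid list also has genes that handle retinoids. Both called genes of that list, Rdh16 and Rbp4, are of this kind. Of the 91 genes, 87 were tested and 12 were past an adjusted p of 0.15 (edgeR), 8 higher and 4 lower in Thrb hep-/- livers. This is 13.8% of those tested against 4.08% of all genes. The lists were chosen with earlier results of these data known, so that this share and those of each list below are descriptive. The median log2 fold change of the 87 genes was 0.12. The count was 23 with DESeq2, among 885 genes called in all, against 499 in the main fit. The count was 7 without wild-type replicate 2, without wild-type replicate 5 or without Thrb hep-/- replicate 3. These fits called 256, 284 and 229 genes in all. When each mouse was left out in turn, Ehhadh, Abcg5, Abcg8, Cyp2c29 and Cyp3a13 passed in all 10 fits, whereas Abcb11 was lost in 7, Rbp4 in 6, Cpt2 in 5, Acot1 and Srebf1 in 4, Abcc3 in 3 and Rdh16 in 1. Without Thrb hep-/- libraries 1, 4 and 5, 1 gene of the lists was called, Rdh16 of the retinoid list, among 185 genes in all. This fit kept only Thrb hep-/- mice 2 and 3, so that the lower count cannot be credited to the adrenal transcripts. With a component of the acute-phase genes as covariate 0 were called, among 7 genes in all. This component correlated with genotype at −0.85, so that their effects cannot be told apart in this fit. With a component of the clock genes as covariate 9 were called. The list medians were then −0.079 for LXR, 0.30 for CAR and PXR and 0.49 for PPARA.

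**Figure D5:**
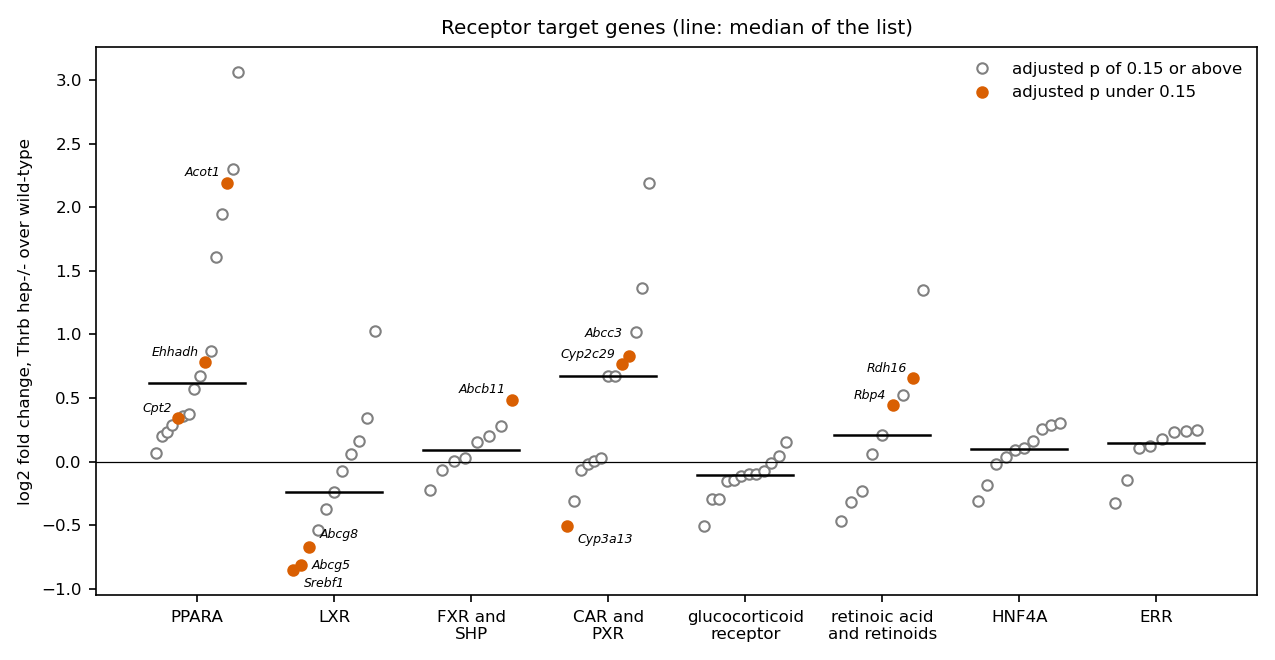
Log2 fold change, Thrb hep-/- over wild-type, of the 87 tested genes in 8 lists, named after receptors except for the retinoid list. Filled circles are the 12 genes with an adjusted p under 0.15, open circles the others, and the line is the median of the list, which is highest for CAR and PXR (0.67) and PPARA (0.62) and lowest for LXR (−0.24).

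Targets of PPARA include genes of peroxisomal and mitochondrial fatty acid oxidation. The listed targets had log2 fold changes above 0 in 16 of 16 cases, against 50.1% of all tested genes, with a median of 0.62. Of these 16, 3 rose past the threshold, against 1.51% of all genes that did, and 13 were higher at an unadjusted p under 0.05, against 6.15%. Without Thrb hep-/- libraries 1, 4 and 5 all 16 were still above 0, with a median of 0.49 and 0 past the threshold. With the acute-phase component 10 of the 16 were above 0, the median was 0.0048 and 0 were called. Ehhadh, an enzyme of peroxisomal beta-oxidation, had 179, 152, 190, 227 and 175 normalized CPM in wild-type and 282, 236, 393, 418 and 256 in Thrb hep-/- mice. Each Thrb hep-/- mouse was above each wild-type mouse, and the log2 fold change was 0.78 (SE 0.17, adjusted p = 0.043 with edgeR). Acot1, a cytosolic acyl-CoA thioesterase which has close copies, so that reads common to them were dropped from the counts, rose from 0.489 to 5.31 in wild-type to 5.84 to 13.4 in Thrb hep-/- mice, a log2 fold change of 2.19 (adjusted p = 0.083 with edgeR). Cpt2, of the mitochondrial carnitine shuttle, rose by 0.34 (adjusted p = 0.11 with edgeR). The genotypes were apart in all 3. The omega-hydroxylase gene Cyp4a14, outside the rule for named genes, had the highest value of the list, 3.06, and was not past the threshold (adjusted p = 0.17 with edgeR).

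LXR targets had values in both directions. Of 11 tested, 3 fell, against 2.57% of all genes, and 0 rose, and the median log2 fold change was −0.24. The pair Abcg5 and Abcg8, which encodes the sterol exporter of the canalicular membrane, fell together. Abcg5 had 128, 147, 105, 111 and 145 normalized CPM in wild-type and 72.7, 75.1, 87.2, 58.8 and 68.6 in Thrb hep-/- mice. The genotypes did not overlap, and the log2 fold change was −0.81 (SE 0.12, adjusted p = 0.0063 with edgeR). Abcg8 had 119 to 194 in wild-type and 72.7 to 118 in Thrb hep-/- mice, a log2 fold change of −0.67 (SE 0.15, adjusted p = 0.049 with edgeR). Srebf1, the regulator of fatty acid synthesis, had a log2 fold change of −0.85 (SE 0.23, adjusted p = 0.10 with edgeR), with overlap. Members not past the threshold included Abca1 (−0.24), Abcg1 (−0.37) and Fasn (−0.54) below 0 and Pltp (1.03) and Scd1 (0.34) above 0. At an unadjusted p under 0.05 with edgeR, 5 of the 11 were lower and 1 was higher, against 13.6% of all genes in either direction. Without Thrb hep-/- libraries 1, 4 and 5, 0 LXR targets were called and the median was −0.37. With the acute-phase component 0 were called, the median was 0.059 and 6 of the 11 were above 0.

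The promoter windows of Ehhadh (chr16:21787835-21788084, minus strand) and of Abcg8 (chr17:84682871-84683120, plus strand) are shown as examples of called PPARA and LXR targets. Abcg5 is transcribed in the other direction, and its own window shares 109 bases with that of Abcg8. The Ehhadh window holds 1 half-site, in capitals, and neither the Abcg8 nor the Abcg5 window holds the letters searched.
Ehhadh: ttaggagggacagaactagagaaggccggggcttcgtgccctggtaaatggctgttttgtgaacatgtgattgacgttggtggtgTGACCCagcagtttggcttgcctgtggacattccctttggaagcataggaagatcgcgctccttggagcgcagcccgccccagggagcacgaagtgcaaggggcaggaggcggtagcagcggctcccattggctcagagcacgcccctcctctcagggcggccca
Abcg8 window 1: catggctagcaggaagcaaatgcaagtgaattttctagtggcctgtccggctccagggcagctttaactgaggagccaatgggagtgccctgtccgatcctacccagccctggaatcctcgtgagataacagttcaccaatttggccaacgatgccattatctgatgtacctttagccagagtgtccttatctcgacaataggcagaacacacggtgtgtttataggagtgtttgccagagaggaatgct

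Of 8 tested targets of FXR and SHP, 1 rose and 0 fell, against 1.51% and 2.57% of all genes, and 0 were called without Thrb hep-/- libraries 1, 4 and 5. The gene that rose was Abcb11, the bile salt export pump, with 585, 588, 607, 569 and 539 normalized CPM in wild-type and 830, 589, 957, 973 and 698 in Thrb hep-/- mice. Thrb hep-/- mouse 2 lay within the wild-type range and the other 4 above it, at a log2 fold change of 0.49 (SE 0.13, adjusted p = 0.10 with edgeR). Cyp7a1, the rate-limiting enzyme of bile acid synthesis, ranged from 87.1 to 218 in wild-type and from 46.2 to 243 in Thrb hep-/- mice. The organic solute transporter genes Slc51a and Slc51b did not pass the filter on low counts.

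Among 13 targets of CAR and PXR, 2 rose and 1 fell, against 1.51% and 2.57% of all genes. The median log2 fold change was 0.67. Leaving out Thrb hep-/- libraries 1, 4 and 5 gave a median of 0.27 and 0 calls, and the acute-phase component gave a median of −0.24, with 4 of the 13 above 0 and 0 calls. Cyp2c29, a drug-metabolizing cytochrome P450 with close paralogues, had 541 to 1100 normalized CPM in wild-type and 1259 to 1769 in Thrb hep-/- mice, with no overlap and a log2 fold change of 0.77 (SE 0.17, adjusted p = 0.054 with edgeR). Abcc3, a basolateral efflux pump of conjugates, had a log2 fold change of 0.83 (SE 0.21, adjusted p = 0.090 with edgeR). Cyp3a13 fell by 0.51 on the log2 scale, from 232 to 313 in wild-type to 162 to 216 normalized CPM in Thrb hep-/- mice (adjusted p = 0.048 with edgeR). The classical PXR target Cyp3a11 ranged from 407 to 1380 in wild-type and from 355 to 2935 in Thrb hep-/- mice.

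In the retinoid list, which holds retinoic acid response genes and genes that handle retinoids, 2 of 9 tested genes rose and 0 fell, against 1.51% and 2.57% of all genes. Rdh16, a retinol dehydrogenase, rose from 33.7 to 52.5 in wild-type to 55.9 to 90.1 in Thrb hep-/- mice (log2 fold change 0.66, adjusted p = 0.074 with edgeR). Rbp4, the plasma retinol carrier secreted by hepatocytes, had a log2 fold change of 0.45 (adjusted p = 0.11 with edgeR). Without Thrb hep-/- libraries 1, 4 and 5, 1 gene of this list was called, Rdh16. Hepatic stellate cells store retinyl esters, and their 7 markers summed to 83.4 to 127 normalized CPM in wild-type and 114 to 136 in Thrb hep-/- livers, with 1 of 7, Des, past the threshold and higher. The retinoic acid hydroxylase genes Cyp26a1 and Cyp26b1 had log2 fold changes of −0.47 and 1.35, with SEs of 0.74 and 1.25, and the receptor gene Stra6 had 0 counts in each library.

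The lists of the glucocorticoid receptor, HNF4A and the oestrogen-related receptors had 12, 10 and 8 tested genes. In each list 0 genes were past the threshold with edgeR, against 4.08% of all genes. An unadjusted p under 0.05 was seen for 0, 2 and 5 genes, against 13.6% of all genes. DESeq2 called 0, 1 (Ttr) and 2 (Etfdh and Idh3a) of them, among 885 genes in all. With limma-voom 2 of the HNF4A list were called (F7 and Ttr), among 849 genes in all. The median log2 fold changes of the lists were −0.11, 0.10 and 0.15. Values above 0 were 2 of 12, 7 of 10 and 6 of 8, against 50.1% of all tested genes. In each of these lists 0 genes were called without Thrb hep-/- libraries 1, 4 and 5. By the lowest unadjusted p, the glucocorticoid receptor list was headed by Cdkn1a, a cell cycle inhibitor, at −0.50 (SE 0.28), and Tat, an enzyme of tyrosine breakdown, at −0.29 (SE 0.23). Mt2, a metallothionein named after its values were seen, did not pass the filter on low counts and was called lower without a filter and with filterByExpr. It had 65, 51, 19, 43 and 43 counts in wild-type and 3, 10, 3, 2 and 10 counts in Thrb hep-/- libraries. The HNF4A list was headed by Ttr, the thyroid hormone carrier of plasma, at 0.30 (SE 0.098, adjusted p = 0.18 with edgeR), whose genotypes were apart, and F7, a clotting factor, at −0.31 (SE 0.12). For the oestrogen-related receptors, Idh3a, of the citric acid cycle, was at −0.32 (SE 0.11) and Etfdh, of the electron transfer chain, at 0.24 (SE 0.090).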

How the data were processed

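The 10 liver libraries were analysed from the raw read counts per gene that the authors deposited. The authors mapped reads on mm10 (GRCm38) with HISAT2 2.2.1 and counted them on Ensembl genes with HTSeq 0.9.1 in union mode, without strand and from alignments of quality 10 or more, as given by the methods and the submitters' processing notes. Reads with more than 1 alignment or over more than 1 gene were left out, and reads of antisense partners cannot be told apart. A deposited table of the authors' own comparison (log2 fold changes, mean log2 CPM, F as a score, p-values and adjusted p-values) was not used.

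The genotypes were compared in edgeR 4.0.16 (R 4.3.3) by the quasi-likelihood F-test, with TMM scaling and the robust option, over the 12234 genes that reached 1 CPM in 5 or more libraries. The adjusted p threshold of 0.15 is the study's. An SE is the size of the log2 fold change over the root of F. RPKM used union exon lengths of GENCODE M21. The fit was tested on simulated data. Replicate numbers did not pair the mice. Receptor pairs were compared with an offset of 0.5 counts.

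The members, gene lists and tests were chosen with earlier results of these data known, and the adrenal genes after the values of Nr5a1 were seen. Named with all values were receptors past 0.15 or with an unadjusted p under 0.05, the 6 highest per length and those of the ratios. Of each target list the 3 largest changes past 0.15 were named, or otherwise the 2 lowest p-values. The symbol Tf was read as Trf, and 1 gene of the target lists is not reported here. Alternatives were RLE scaling, DESeq2 1.42.0, limma-voom (limma 3.58.1), no filter, filterByExpr, no robust settings, acute-phase or clock components as covariates, the replicate block, another offset and leaving out mice.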

Additional observations from a re-analysis of the deposited data

Results flagged for a closer look

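In 10 of 117 groups of 5 libraries checked, 1 library lay far from the other 4 of its genotype, and chance gives about 5.85 (1 in 20 groups). No explanation was tested. In Thrb hep-/- library 1 this was so for Nr1h2 (42.8 normalized CPM against 35.1 to 36.1), Rara (35.2 against 22.9 to 26.5), Esrra (29.1 against 41.4 to 45.0), Vdr (4 counts against 0 to 1) and Nr5a1 (68 counts against 0 to 19). This library held the most adrenal transcripts. In Thrb hep-/- library 3, Hnf4g had 5 counts against 1 to 2. In wild-type library 5, Rxra was low (684 normalized CPM against 763 to 784) and Esr1 high (54.8 against 26.0 to 34.2). Nr3c1 was high in wild-type library 2 (93.5 normalized CPM against 71.7 to 76.0). Of the target genes, Acot1 was high in wild-type library 4 (5.31 normalized CPM against 0.489 to 1.80).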

How the results depend on the processing

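The 0 receptors past 0.15 became 1 without a filter (Nr4a3), and leaving out each mouse gave 0 to 1 (Nr6a1, without Thrb hep-/- replicate 2). The fit without a filter called 641 genes in all, and the fit without Thrb hep-/- replicate 2 called 634. The 12 target genes became 0 with the acute-phase component, 23 with DESeq2 and 1 without Thrb hep-/- replicates 1, 4 and 5, a set left out after seeing the data, and 7 to 18 with each mouse left out. The lowest, 7, came without wild-type replicate 2, wild-type replicate 5 or Thrb hep-/- replicate 3. Those fits called 256, 284 and 229 genes in all, against 499 in the main fit and 885 with DESeq2. The cause was not tested. The median receptor log2 fold change stayed between 0.0057 and 0.089, and 0 of 6 receptor pairs passed in any setting run. Replicate numbers did not pair the mice (correlations of deviations −0.20 to 0.0091). The replicate block gave 0 receptors and 10 target genes, with Nr5a2 at −0.0015, and changed no receptor call.

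Of the 26 receptors, 11 kept the sign of their log2 fold change in 20 settings and 15 did not. With the acute-phase component the values were −0.090 for Pparg, −0.087 for Ppard, −0.12 for Rxra, −0.11 for Hnf4a, −0.71 for Nr4a1, −0.18 for Nr1h4, 0.23 for Esr1, 0.076 for Nr3c1, 0.49 for Nr0b2, 0.029 for F7 and 0.065 for Tat. With the clock component they were −0.11 for Pparg, −0.019 for Nr2f6, −0.0039 for Hnf4a and −0.21 for Nr4a1. Nr5a2 was at −0.0030 without a filter and −0.022 with limma-voom. Without Thrb hep-/- replicates 1, 4 and 5, values were −0.36 for Pparg, −0.046 for Ppard, −0.43 for Nr4a1, −0.32 for Nr3c2, and, as log2 ratios, −0.34 for Rara over Rarb and 0.15 for Nr3c1 over Nr3c2. With each mouse left out, values went from −0.032 to 0.12 for Ppard, −0.053 to 0.29 for Pparg, −0.080 to 0.0084 for Nr1h2, −0.15 to 0.034 for Nr2c1, −0.012 to 0.14 for Nr2f6, −0.014 to 0.13 for Hnf4a, −0.039 to 0.066 for Nr5a2, −0.022 to 0.13 for Esrra, −0.11 to 0.86 for Nr4a1, −0.25 to 0.29 for Rara over Rarb and −0.14 to 0.017 for Rxra over Rxrb. None of these values was past the threshold.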
